A study of Homo sapiens with 3 samples.

Results

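MHC class II molecules are heterodimers of an alpha and a beta chain that present peptides from the endosomal pathway to CD4+ T cells. The invariant chain CD74 holds new dimers in shape and blocks their groove, HLA-DM then exchanges its remnant for a peptide, and the transactivator CIITA switches these genes on together. Dendritic cells, macrophages and B cells carry class II constitutively, while many other cells, chondrocytes among them, can be induced to do so by interferon-gamma. The 10 genes described here are the alpha chains HLA-DRA, HLA-DPA1 and HLA-DQA1, the beta chains HLA-DRB1, HLA-DPB1 and HLA-DQB1, the peptide exchange subunits HLA-DMA and HLA-DMB, CD74 and CIITA. They were chosen by symbol from the 19215 genes of the authors' deposited table, and all 10 were present.

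The samples are 3 libraries of C28/I2, an immortalised human chondrocyte line, grown as spheroids (aggregates of cells) with 0.5% DMSO, a solvent, for 48 h. All share that line, solvent and time. Monolayer cultures of the line enter through the authors' deposited fold changes of spheroid over monolayer alone, and the sources used here do not give their treatment. Nothing in the labels tells whether the samples are separate cultures, so p-values and SDs may measure technical spread. Levels are FPKM, fragments scaled by transcript length and library size, which may be compared between genes. A gene is called higher or lower in spheroids where its adjusted p in the authors' comparison is under 0.05 and its log2 fold change is 1 or more in size.

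The read depth is unknown. Scale factors between the libraries ran from 0.995 to 1.01, and genes at 1 FPKM or more (12410) had a median coefficient of variation of 8.37%. Of 11 chondrocyte markers, 1 reached 1 FPKM in the spheroids: SOX9, the chondrogenic transcription factor, at 6.71 ± 0.0866 FPKM (SD, n = 3). COL2A1, the main cartilage collagen, averaged 0.0167 ± 0.0115 FPKM (SD, n = 3), and 10 of the 11 defining markers of the labelled cell type were under 1 FPKM. Of 16 markers of immune cells in the table, 4 were higher and 1 lower in spheroids. Of all tested genes, 11.5% were higher and 9.34% lower. The summed level of the immune cell markers was 71.1, 72.2 and 77.4 FPKM in replicates 1, 2 and 3. Most of that sum came from ITGAX, an integrin gene used as a dendritic cell marker, at 26.1 ± 1.33 FPKM, and CD3D, a T-cell receptor component, at 32.6 ± 3.31 FPKM (SD, n = 3). PTPRC, the pan-leukocyte antigen CD45, had 0, 0.01 and 0.06 FPKM in the 3 libraries. The B-cell marker MS4A1 and the dendritic cell marker CLEC9A were each listed at 0 in 2 libraries and at 0.04 FPKM in the other. Other immune markers were detected: XCR1, a chemokine receptor that marks the same dendritic cell subset as CLEC9A, averaged 3.77 ± 0.593 FPKM, and CSF1R, a macrophage growth factor receptor, 6.27 ± 0.395 FPKM (SD, n = 3). The other myeloid markers CD14, SPI1, AIF1 and ITGAM averaged 0.293, 0.317, 0.943 and 0.35 FPKM, and LYZ 1.37 FPKM. Of the 16 markers, 6 reached 1 FPKM.

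Class II promoters carry an upstream module in which an X box, bound by the RFX complex and CREB1, lies before a Y box, bound by NF-Y, and CIITA docks on the proteins assembled there. The sequences of 6 genes are shown so that these letters can be seen: 5 of them were called higher in spheroids, and the other, HLA-DMA, was not past the threshold. RefSeq windows (GRCh38.p14) were matched for 8 of the 10 genes. The 150 bases before the gene start are given 5′ to 3′ on the gene's strand. Capitals mark AGCAAC (X box core), TGATGA (letters at the end of an X box, chosen after the sequences were seen) and ATTGG (Y box core), on either strand, so that CCAAT is the Y box core read backwards. AGCAAC and TGATGA run on without a gap in HLA-DRB1.
HLA-DRB1, chr6:32589849-32589998, minus strand: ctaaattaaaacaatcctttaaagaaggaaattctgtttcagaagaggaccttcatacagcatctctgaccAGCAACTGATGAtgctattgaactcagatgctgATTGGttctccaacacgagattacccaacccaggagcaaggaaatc
HLA-DMA, chr6:32953098-32953247, minus strand: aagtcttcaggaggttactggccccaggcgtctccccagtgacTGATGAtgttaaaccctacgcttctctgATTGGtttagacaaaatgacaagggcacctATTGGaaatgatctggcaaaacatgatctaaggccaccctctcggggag
HLA-DMB, chr6:32941029-32941178, minus strand: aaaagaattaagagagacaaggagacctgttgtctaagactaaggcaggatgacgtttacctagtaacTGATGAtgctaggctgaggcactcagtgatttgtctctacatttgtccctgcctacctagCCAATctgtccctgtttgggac
CD74, chr5:150412911-150413060, minus strand: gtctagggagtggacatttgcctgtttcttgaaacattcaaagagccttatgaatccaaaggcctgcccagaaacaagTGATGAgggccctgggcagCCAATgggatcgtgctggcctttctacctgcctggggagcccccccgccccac
HLA-DQB1, chr6:32666658-32666807, minus strand: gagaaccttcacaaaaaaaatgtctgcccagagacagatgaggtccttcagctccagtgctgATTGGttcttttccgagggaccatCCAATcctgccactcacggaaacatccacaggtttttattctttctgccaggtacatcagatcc
HLA-DPB1, chr6:33075840-33075989, plus strand: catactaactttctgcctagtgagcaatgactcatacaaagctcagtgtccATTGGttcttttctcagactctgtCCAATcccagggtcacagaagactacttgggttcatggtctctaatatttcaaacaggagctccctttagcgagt

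The TGATGA letters began 73 bases before the gene start in HLA-DRB1, 72 in CD74, 82 in HLA-DMB and 107 in HLA-DMA. In HLA-DRB1 they were followed by a Y box core after 21 bases, in HLA-DMA after 22 and in CD74 after 13. An arrangement of this kind, with 5 to 40 bases between, was present in 3 of the 9 windows of these genes and in 0.330% of the 35116 RefSeq windows of 300 bases; the arrangement was defined after these sequences were seen, so the shares are a description. Taken singly, ATTGG was in 7 of the 9 windows against 34.6% of all windows, AGCAAC in 3 of 9 against 12.8%, and TGATGA in 5 of 9 against 10.9%. HLA-DPA1 has 2 windows from different annotated starts, 1 of them with AGCAAC before the start and neither with ATTGG. A match of letters is no evidence of binding.

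**Figure D1:**
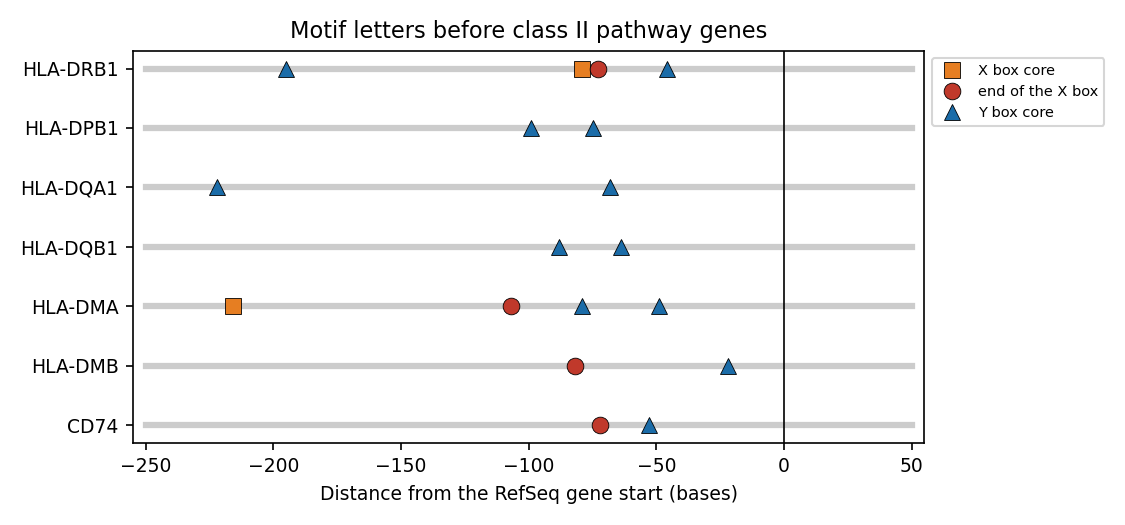
Positions of the motif letters in the windows of 7 genes, in bases from the RefSeq gene start (vertical line at 0; each grey bar is the 300-base window). A red circle (TGATGA, end of the X box) lies upstream of a blue triangle (Y box core) in HLA-DRB1, HLA-DMA, HLA-DMB and CD74. A second, more distant triangle lies upstream of the circle in HLA-DRB1. HLA-DPB1, HLA-DQA1 and HLA-DQB1 hold Y box cores without a red circle. The circle marks exact letters, so its absence does not show that an X box is missing.

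Class II chain transcripts were present in every spheroid library, and most came from the DR and DP genes. Summed over the 6 chains, the level was 64.6, 67.9 and 75.0 FPKM in replicates 1, 2 and 3. HLA-DR made up 49.0% of the summed mean, HLA-DP 47.1% and HLA-DQ 3.88%. These shares moved little between libraries, from 48.7% to 49.6% for DR, 46.4% to 47.8% for DP and 3.44% to 4.26% for DQ. Nearly all of the DP level was HLA-DPA1, with a mean of 31.3 FPKM against 1.27 FPKM for HLA-DPB1.

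HLA-DRA, the nearly invariant alpha chain of DR, had 23.6, 25.0 and 26.7 FPKM in replicates 1, 2 and 3, with a mean of 25.1 ± 1.54 FPKM (SD, n = 3). Its partner HLA-DRB1, which carries most of the allelic variation of DR, had 8.43, 8.15 and 9.87 FPKM (mean 8.82 ± 0.923, SD, n = 3). In each library the alpha chain stood above the beta chain, by a ratio of 2.86 ± 0.188 (SD, n = 3). Reads of HLA-DRB1 can be shared with its close relatives: HLA-DRB4 had 2.08, 1.80 and 1.61 FPKM, HLA-DRB3 had 0.56, 0.07 and 0.66 FPKM, and HLA-DRB5 was listed at 0 in the 3 libraries. The sources used here do not say how reads that match several genes, or alleles unlike the reference, were assigned, so the level of each DRB gene is uncertain.

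HLA-DPA1 was the most abundant of the 10 by mean, with 28.8, 30.5 and 34.6 FPKM in replicates 1, 2 and 3 (mean 31.3 ± 3.01, SD, n = 3). HLA-DPB1, the beta chain it pairs with, had 1.17, 1.42 and 1.23 FPKM (mean 1.27 ± 0.131, SD, n = 3). The DP chains were thus far apart, with an alpha to beta ratio of 24.6, 21.5 and 28.2 in replicates 1, 2 and 3. The annotated loci of these 2 genes overlap on opposite strands of chromosome 6 in RefSeq. The sources used here do not say whether the libraries were stranded, so reads from the shared stretch cannot be assigned with certainty.

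In DQ the order was the other way, with the beta chain above the alpha chain in the 3 libraries. HLA-DQB1 had 2.16, 2.70 and 2.42 FPKM (mean 2.43 ± 0.270, SD, n = 3). HLA-DQA1 had 0.43, 0.19 and 0.16 FPKM in replicates 1, 2 and 3, so replicate 1 was the high library and the coefficient of variation was 56.9%. The alpha to beta ratio was 0.199, 0.0704 and 0.0661, with a mean of 0.112 over the 3 libraries and of 0.0682 when replicate 1 was left out. DQ genes have the close copies HLA-DQA2 and HLA-DQB2, which averaged 0.05 ± 0.0866 and 0.0467 ± 0.0808 FPKM (SD, n = 3), and are highly polymorphic.

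HLA-DMA, a subunit of the peptide exchange factor, had 30.4, 30.6 and 29.1 FPKM (mean 30.0 ± 0.812, SD, n = 3) and the smallest coefficient of variation of the 10, 2.70%. The other subunit, HLA-DMB, had 4.0, 3.42 and 3.90 FPKM (mean 3.77 ± 0.310, SD, n = 3), lower in every library by a ratio of 8.0 ± 0.816 (SD, n = 3). CD74, the invariant chain, had 23.3, 22.1 and 24.8 FPKM (mean 23.4 ± 1.34, SD, n = 3). It lay just under HLA-DRA in each library, at 0.934 ± 0.0508 of its level (SD, n = 3). CIITA had 1.56, 1.80 and 1.67 FPKM (mean 1.68 ± 0.120, SD, n = 3), a level above that of 40.4% of the genes in the table.

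By mean level in FPKM the order was HLA-DPA1, HLA-DMA, HLA-DRA, CD74, HLA-DRB1, HLA-DMB, HLA-DQB1, CIITA, HLA-DPB1 and HLA-DQA1. The ranges of HLA-DPA1 and HLA-DMA overlapped, with HLA-DPA1 higher in 1 of 3 libraries. The ranges of HLA-DRA and CD74 overlapped as well, although HLA-DRA was above CD74 within each of the 3 libraries. The other 7 pairs of neighbours in the order did not overlap. No library was high for all genes: 4 had their highest value in replicate 3, 4 in replicate 2 and 2 in replicate 1.

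**Figure D2:**
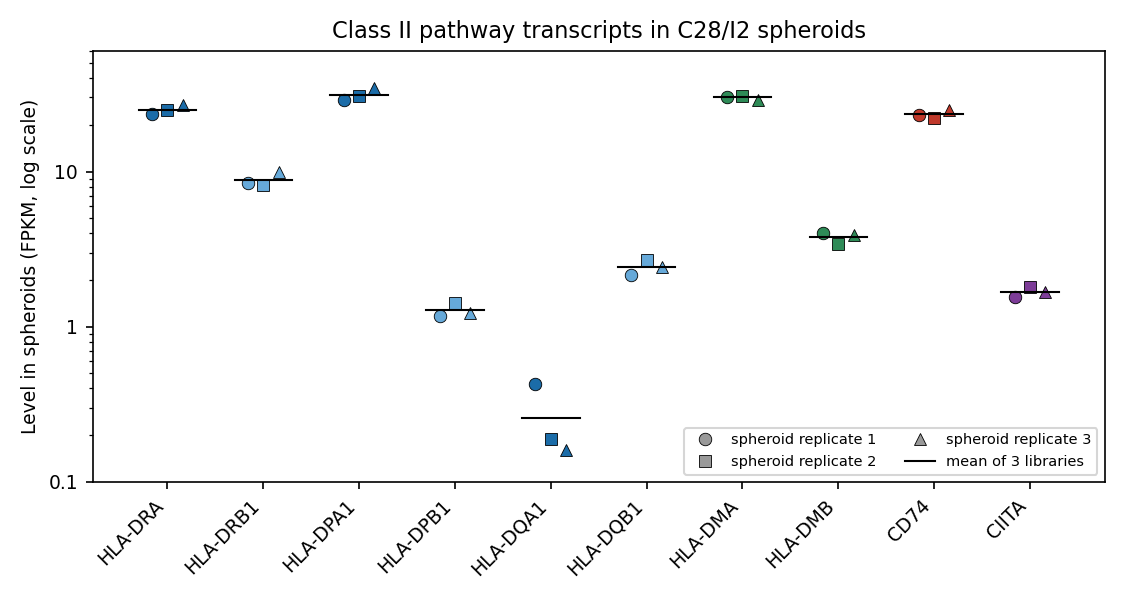
Level of each gene in the 3 spheroid libraries (points, FPKM on a log axis) with their mean (black line); dark blue marks alpha chains, light blue beta chains, green the peptide exchange subunits, red CD74 and purple CIITA. HLA-DRA, HLA-DPA1, HLA-DMA and CD74 lie between 22.1 and 34.6 FPKM, and the points of HLA-DQA1 are the most scattered.

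Between the culture forms, the 6 class II chain genes of the set, CD74, CIITA and HLA-DMB were higher in spheroids. By the rule above, 9 of the 10 genes were higher and 0 lower, where 11.5% of all 18467 tested genes were higher and 9.34% lower. By the adjusted p alone, 10 of 10 were higher, where 26% of all tested genes were. Their log2 fold changes had a median of 2.76, and those of all tested genes 0.04, by the authors' deposited table. Because the genes were chosen with these values known, the count is a description. In bulk samples a larger share of cells with class II and more RNA per cell cannot be told apart. Among the immune cell markers, CD3D, CD3E, the dendritic cell marker XCR1 and the integrin gene ITGAM were higher, with 2.33 for XCR1 in the authors' deposited table. BLK was lower, at -2.14 in the authors' deposited table (DESeq2 adjusted p = 0.0189), and 11 of the 16 markers were not past the threshold. ITGAM and BLK averaged 0.35 and 0.0867 FPKM in spheroids. CSF1R had 0.94 in the authors' deposited table, under the minimum (DESeq2 adjusted p = 7.22e-10), and PTPRC had a log2 fold change listed as 0.11 by the authors' deposited table (DESeq2 adjusted p = 0.962). The deposited table gives no standard error of a fold change.

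The DR chains and CD74 had log2 fold changes above 3, each more than 10 times the monolayer level. The authors' deposited table gave HLA-DRA a log2 fold change of 3.92, 15.1 times the monolayer level (DESeq2 adjusted p = 1.55e-61). HLA-DRB1 had 3.76 in the authors' deposited table, or 13.5 times (DESeq2 adjusted p = 7.10e-24). CD74 had 3.39 in the authors' deposited table, or 10.5 times (DESeq2 adjusted p = 1.15e-67). The paired DR chains and the chaperone that assembles with them lay close together on this scale, but not apart from the DQ chains. HLA-DQB1 lay between HLA-DRB1 and CD74, at 3.58, and HLA-DQA1 above HLA-DRA, at 4.20, in the authors' deposited table.

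The DP and DQ chains were called higher too. HLA-DPA1, the most abundant chain in spheroids, had the smallest log2 fold change of the 6 chains, 1.37 in the authors' deposited table (DESeq2 adjusted p = 3.68e-25). HLA-DPB1 had 2.14 in the authors' deposited table (DESeq2 adjusted p = 2.09e-09). For DQ, HLA-DQB1 had 3.58 in the authors' deposited table (DESeq2 adjusted p = 3.40e-10). HLA-DQA1, the least abundant chain, had the largest log2 fold change of the 10, 4.20, and the largest adjusted p, 0.0293, in the authors' deposited table (DESeq2). It was the call that an adjusted p under 0.01 ended, and at 0.16 to 0.43 FPKM its fold change is imprecise.

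The exchange subunits and the transactivator had smaller fold changes than the DR and DQ chains, a difference that was not tested. For the DP chains this held against HLA-DPB1, at 2.14 in the authors' deposited table. HLA-DPA1, at 1.37 there, lay under HLA-DMB and above CIITA and HLA-DMA. The authors' deposited table gave HLA-DMB a log2 fold change of 1.44 (DESeq2 adjusted p = 2.98e-05). HLA-DMA had 0.64 in the authors' deposited table, under the minimum of 1, with a DESeq2 adjusted p of 0.000151. CIITA had 1.16 by the authors' deposited table, 2.24 times the monolayer level (DESeq2 adjusted p = 4.48e-09). Among the genes called, CIITA lay nearest to the minimum fold change and HLA-DMA was the gene outside it.

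**Figure D3:**
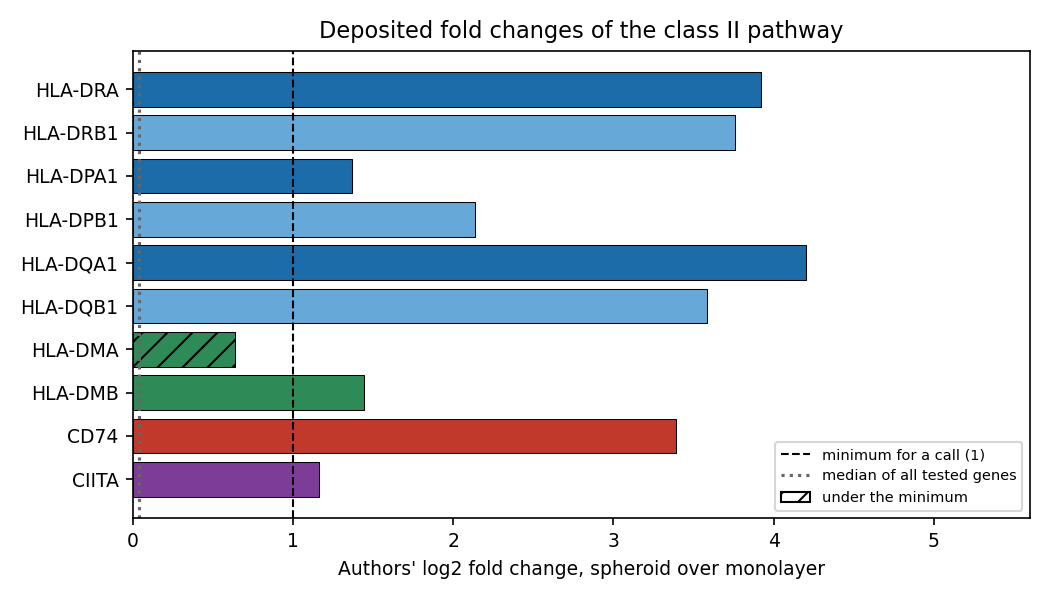
Log2 fold change of each gene, spheroid over monolayer, from the authors' deposited table (colours by role: dark blue alpha chains, light blue beta chains, green exchange subunits, red CD74, purple CIITA); the dashed line is the minimum of 1 for a call and the dotted line the median of all tested genes, 0.04. HLA-DRA, HLA-DRB1, HLA-DQA1, HLA-DQB1 and CD74 lie above 3, and HLA-DMA, hatched, is under the minimum.

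Other class II genes include the DO subunits, which inhibit HLA-DM. Of 6 tested genes on this list, 2 were higher and 0 lower. The shares to set beside this count and those of the lists below are 11.5% higher and 9.34% lower over all tested genes. HLA-DOB had 1.52, 1.45 and 1.96 FPKM in replicates 1, 2 and 3. Its log2 fold change was 1.19 in the authors' deposited table (DESeq2 adjusted p = 0.0287). HLA-DOA had 0.17, 0.17 and 0.28 FPKM, and stood at 3.18 in the authors' deposited table (DESeq2 adjusted p = 0.00804). The DRB relatives HLA-DRB3 and HLA-DRB4 did not pass, at 2.95 and 0.60 in the authors' deposited table (DESeq2 adjusted p = 0.0750 and 0.264).

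Of the 7 genes for proteins that assemble on the class II promoter, none was higher and 1 was lower. With 7 genes, these counts do not stand apart from the 11.5% and 9.34% of all tested genes called higher and lower. The median log2 fold change of the 7 by the authors' deposited table was -0.11. RFXAP, a subunit of the RFX complex, fell, with a log2 fold change listed as -1.26 by the authors' deposited table (DESeq2 adjusted p = 4.41e-10), and had 2.68, 2.37 and 2.32 FPKM. RFX5 and RFXANK, the other RFX subunits, did not reach the minimum, with 0.26 and 0.25 in the authors' deposited table, and averaged 17.7 ± 0.199 and 61.3 ± 5.47 FPKM in spheroids (SD, n = 3). The NF-Y subunits NFYA, NFYB and NFYC had -0.11, -0.38 and -0.06, and CREB1 -0.13, in the authors' deposited table. By the DESeq2 adjusted p alone, RFX5 (0.0235) and NFYB (0.0042) were under 0.05 in the authors' deposited table.

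Genes of the route by which interferon-gamma induces CIITA, counted with the inhibitor SOCS1, were mostly higher, 7 of 9 tested with 0 lower. Their median log2 fold change was 1.49 by the authors' deposited table. IRF1, a transcription factor that acts on the inducible CIITA promoter, had 44.8, 53.0 and 49.0 FPKM in replicates 1, 2 and 3. Its log2 fold change was 2.10 in the authors' deposited table (DESeq2 adjusted p = 1.72e-79). SOCS1, a feedback inhibitor of interferon signalling, had 1.74, the receptor chain IFNGR2 1.51 and the kinase JAK2 1.49 in the authors' deposited table. JAK1 and USF1, a factor of the same CIITA promoter, did not reach the minimum, at 0.39 and 0.75 in the authors' deposited table. IFNG, which encodes interferon-gamma itself, was listed at 0 in the 3 spheroid libraries and has no fold change in the authors' deposited table.

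Genes that interferon-gamma induces in many cells were higher in 11 of 12 cases and lower in 0, and their median log2 fold change by the authors' deposited table was 3.80. UBD, a ubiquitin-like modifier, stood at 7.80, the chemokines CXCL10 and CXCL11 at 7.28 and 7.17, and the guanylate-binding protein gene GBP4 at 4.52 in the authors' deposited table. Several of these genes also respond to other interferons or to NF-kB. The gene that did not pass was IRF8, a transcription factor of myeloid cells and B cells, at -0.45 in the authors' deposited table (DESeq2 adjusted p = 0.324).

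Genes linked to repression of CIITA or to silencing of its promoter moved both ways, with 1 of 9 higher and 4 lower. EZH2, the Polycomb methyltransferase, fell, with -2.59 on the log2 scale by the authors' deposited table (DESeq2 adjusted p = 2.85e-129), and had 7.55, 7.68 and 7.36 FPKM. The DNA methyltransferases DNMT1 and DNMT3B had -1.76 and -1.57, and MYC -1.55, in the authors' deposited table. PRDM1, whose product BLIMP1 represses CIITA in plasma cells, rose, at 3.09 in the authors' deposited table, and had 5.18, 5.13 and 4.24 FPKM.

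Proteases and other enzymes of the endosomal route were higher as well, 8 of 10 with 1 lower, and their median log2 fold change by the authors' deposited table was 1.16. CTSS, cathepsin S, which trims the invariant chain in antigen-presenting cells, had 19.6, 24.2 and 23.8 FPKM. Its log2 fold change was 2.43 in the authors' deposited table (DESeq2 adjusted p = 1.75e-78). Cathepsin F, encoded by CTSF and able to trim the invariant chain in macrophages, had 1.92, CTSL 1.75 and CTSB 1.60 in the authors' deposited table. IFI30, a thiol reductase that unfolds antigens, had 1.14 in the authors' deposited table at 177 ± 24.7 FPKM in spheroids (SD, n = 3). CTSV, which does this trimming in thymic epithelium, fell, at -1.57 in the authors' deposited table, and averaged 0.583 ± 0.0351 FPKM in spheroids (SD, n = 3).

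Of the ubiquitin ligases that remove class II from the cell surface, MARCHF8 rose and MARCHF1 fell, at 1.60 and -1.74 in the authors' deposited table. MARCHF8 averaged 11.5 ± 1.197 FPKM and MARCHF1 0.347 ± 0.0751 FPKM (SD, n = 3). CD83, which opposes MARCHF1, had 0.02 in the authors' deposited table and did not pass (DESeq2 adjusted p = 0.940). CD74 at the cell surface is also a receptor for the cytokine MIF, and 2 of 6 genes of that signalling were higher. They were the chemokine receptors CXCR4, at 5.02, and CXCR2, at 2.69, in the authors' deposited table. In spheroids CXCR4 averaged 63.4 ± 8.73 FPKM and CXCR2 0.343 ± 0.102 FPKM (SD, n = 3). Among genes at 1 FPKM or more, 1 gene of this list was higher. MIF itself had 1727, 1926 and 2406 FPKM, and stood at 0.82 in the authors' deposited table, under the minimum.

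Of 8 costimulatory and adhesion genes that T cells meet beside class II, 5 were higher and 0 lower. CD86 and CD80, the ligands of CD28, had log2 values of 5.33 and 2.57 by the authors' deposited table, and averaged 0.80 ± 0.156 and 0.413 ± 0.0814 FPKM in spheroids (SD, n = 3). ICAM1, an adhesion ligand, stood at 5.02 and CD274, the inhibitory ligand PD-L1, at 1.57 in the authors' deposited table.

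Class I genes and their loading machinery were higher in 11 of 16 cases and lower in 0, and their median log2 fold change by the authors' deposited table was 1.66. HLA-B, a classical class I chain, averaged 1986 ± 225 FPKM in spheroids (SD, n = 3), far above any class II chain. Its log2 fold change was 1.87 in the authors' deposited table, smaller than the 3.92 of HLA-DRA there, a difference that was not tested. Not all of the class II set lay above HLA-B. HLA-DPA1, HLA-DMB, CIITA and HLA-DMA were below it, at 1.37, 1.44, 1.16 and 0.64 in the authors' deposited table, and the rest above. NLRC5, the class I counterpart of CIITA, had 18.3, 20.2 and 23.3 FPKM. At 0.99 in the authors' deposited table, it lay just under the minimum (DESeq2 adjusted p = 4.11e-21).

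**Figure D4:**
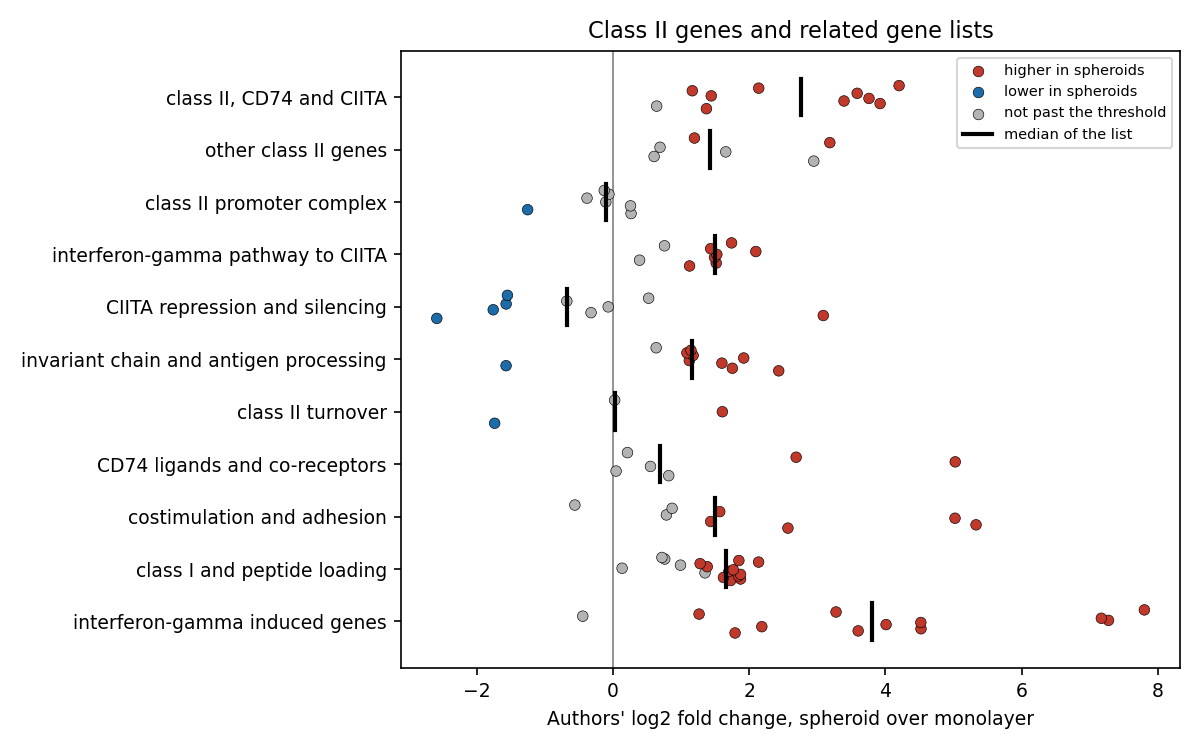
Authors' log2 fold change, spheroid over monolayer, of each tested gene (points) in the class II set and in 10 related lists, with the median of each list (black bar); red points are higher, blue lower and grey not past the threshold. The class II set has a median of 2.76 with 9 of 10 points red, and interferon-gamma induced genes 3.80 with 11 of 12 red. The class II promoter complex has -0.11 with none of its 7 points red, where 11.5% of all tested genes were higher.

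The genes nearest to a class II gene in the plane of the authors' log2 fold change and the mean log2(FPKM + 1) over the 3 spheroid libraries were also listed. For HLA-DRA they were C11orf96, BATF2, IL36G, IL1RN and IFI44L, at distances of 0.17 to 0.44 on the log2 scale. For CD74 they were CTSO, STC1, MT1B, SOX4 and THEMIS2, at 0.14 to 0.33. For CIITA they were ZNF501, HLA-DOB, ERN1, PIH1D2 and RGS11, at 0.02 to 0.08. The measure uses 1 fold change and 1 level per gene, and likeness in it is a description.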

How the data were processed

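RNA sequencing measured 3 spheroid samples, grouped by their labels. The authors deposited FPKM values to 2 decimals, and the log2 fold change, p-value and adjusted p-value (q-value) of their DESeq2 comparison, per the file headers. The submitters' processing notes name Bowtie2 2.2.5, RSEM 1.2.12, DESeq2 1.4.5 and GRCh38.p13, without roles. A positive fold change is higher in spheroids: of 358 tested genes at 0 in the spheroid libraries, 356 had one below 0. Adjusted values equalled a Benjamini-Hochberg adjustment over the 18467 tested genes to within 1.3e-15. The 3 columns of other libraries match no listed sample and were used in no step, so the comparison was not refitted.

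Levels are means with SD over the libraries as deposited. Depth is unknown, so no interval or floor is given. The genes and lists were chosen with earlier results of these data known, so p-values are the authors' over all genes and no list was tested. Text names every class II set gene, up to 4 genes of each list past the threshold per direction, and others for their role; not all are printed, and some are not reported here. Alternatives were a stricter adjusted p (0.01), a log2 minimum of 2 or none, at least 1 FPKM, centred fold changes, median-ratio scaling, means on log2 scales with pseudocounts of 1 and 0.1, and leaving out each replicate. Promoters come from RefSeq (GRCh38.p14). Figures used matplotlib 3.10.9, and computation pandas 2.3.3, NumPy 2.4.6 and Python 3.11.15.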

Additional observations from a re-analysis of the deposited data

How the results depend on the processing

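The 9 calls among the 10 class II pathway genes became 8 with an adjusted p under 0.01, 8 among genes at 1 FPKM or more, 6 with a minimum log2 fold change of 2 and 10 with no minimum, and none became lower under these settings or with centred fold changes. Over the related lists, markers of cell types left out, 48 genes were higher and 7 lower. With a minimum log2 fold change of 2 these were 19 and 1, and with no minimum 60 were higher and 11 lower. That follows from the stricter or looser minimum itself. Mean levels of the 10 genes moved by less than 1 SD with median-ratio scaling and with means on the log2 scales, as did the 4 alpha to beta ratios with a pseudocount of 0.1. With scale factors from 0.995 to 1.01, median-ratio scaling could move a mean only slightly. A log2 mean of 3 such values also stays near the plain mean, so neither says much of stability. Leaving out 1 of 3 replicates cannot move a mean by 1 SD, so that comparison says nothing of stability; the HLA-DQA1 level ran from 0.175 to 0.31 FPKM, and its ratio to HLA-DQB1 from 0.0682 without replicate 1 to 0.135. No paired analysis was possible because the 3 samples form 1 labelled group. Unknown depth limits most what can be said of HLA-DQA1, HLA-DOA and other genes under 1 FPKM.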
